A study of Saccharomyces cerevisiae with 109 samples.

Results

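The comparison described here set mRNA that yeast made during 96 h of labelling at 5 °C against the whole mRNA pool of such cultures. It rests on 6 of the 109 libraries of the series, 3 of 4-thiouracil (4tU)-labelled RNA taken at 96 h and 3 of steady-state RNA, all from 5 °C cultures without added glutathione (GSH), called low [GSH] below. The libraries were chosen by their labels alone, and each holds 1 biological replicate. The cells were a haploid MATa strain of the budding yeast Saccharomyces cerevisiae in the W303 background, which is a single laboratory strain, and 4tU was added to the medium after 2 weeks of incubation. The labels do not say at which hour of labelling the steady-state RNA was taken. A difference between new and older mRNA and a change of expression over the labelling time can therefore not be told apart in this comparison. The labelled cells had also been with 4tU for 96 h, and labelled RNA was picked by pull-down. Effects of 4tU exposure or of the pull-down on the shares cannot be told apart from these either. For side-by-side values, the same 3 against 3 libraries were taken from 5 °C cultures with 250 µM GSH (high [GSH]) and from 1 °C cultures with low [GSH].

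4tU is a uracil analog that the uracil salvage pathway turns into a nucleotide and RNA polymerases build into new RNA. Labelled RNA carries a thiol, which allows it to be pulled out of total RNA. An mRNA pool is renewed as old molecules decay and new ones are made, so a labelled pool comes to resemble the steady-state pool as long as neither synthesis nor decay of the genes changes. Yeast is known to answer cold with changes in ribosome production, membrane lipids and cell wall proteins, and resting or stressed cells are known to hold many mRNAs for chaperones, reserve carbohydrates and vacuolar enzymes.

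All values below are shares, in RPM, the reads of a gene per 1000000 reads on the mRNA of 5876 nuclear protein-coding genes of a library. They are not divided by gene length and are compared within a gene, except where genes are ranked by share or by lost reads. A share can fall because other mRNAs rose, and in RNA from whole cultures fewer cells with an mRNA cannot be told from less of it per cell. The 96 h libraries held 13408588 to 14758150 mRNA reads and the steady-state libraries 9053992 to 9331234. Among the 96 h libraries, replicate 3 stood apart. Its mRNA took 89.3% of assigned reads, against 79.5% and 80.4% in the others, and results that turn on it are marked. The ratio of mRNA to the Schizosaccharomyces pombe spike-in, in summed TPM, was 10.8, 12.9 and 28.2 in the labelled and 3.98, 5.05 and 5.89 in the steady-state libraries, so it was not read as the portion of mRNA that was labelled. For the mating type, STE2, the receptor of MATa cells, had 195 to 211 RPM in labelled and 205 to 250.5 in steady-state libraries. STE3, the receptor of MAT alpha cells, had 17.7 to 18.5 and 16.7 to 20.1. MFA1, a pheromone gene of MATa cells with a very short gene model, was near 0 in all 6 libraries, at 0.27 to 1.07 RPM.

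**Figure D1:**
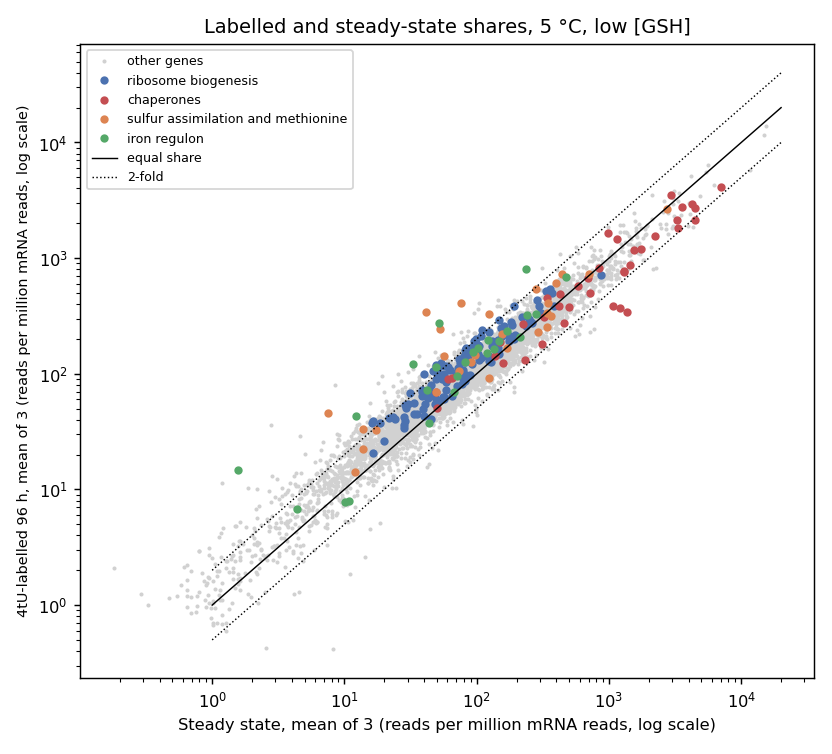
Share of each gene in steady-state mRNA (x axis) and in mRNA labelled for 96 h (y axis), means of 3 libraries, in RPM on log scales, with 4 gene lists in colour, a solid line of equal shares and dotted lines at 2-fold. Chaperone genes lie mostly below the line and genes of ribosome biogenesis, iron and sulfur mostly above it, and most genes lie between the dotted lines.

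After 96 h, the labelled pool had more mRNA for building ribosomes, for iron uptake and for making cysteine and S-adenosylmethionine than the steady-state pool, and less for chaperones and for many stress and vacuolar proteins. Of 5621 genes tested with edgeR's quasi-likelihood test, 2173 were higher in labelled mRNA (38.7%) and 590 lower (10.5%) at an adjusted p under 0.05. Past 2-fold, 308 were higher (5.48%) and 48 lower (0.854%). In 3371 of the 5621 genes (60.0%) the 3 labelled and 3 steady-state shares did not overlap. The 10 largest falls and 10 largest rises named below were picked among such genes, so their lack of overlap comes from the choice. The median gene was higher by 0.21 on the log2 scale. TMM scaling, which centres the bulk of the genes on no change, lowered that median by 0.20 to 0.01, and then 1327 genes were higher (23.6%) and 1278 lower (22.7%). Past 2-fold, 163 were then higher and 94 lower, and with a coding length trend removed 138 and 101. The 1327 and all 590 of the calls by share were the same genes in both scalings, and no gene changed direction. Without replicate 1 of both pools, 1341 genes were higher and 257 lower, and without steady-state replicate 2, 385 were lower. A list with a median near 0.21 moved with the median gene, and lists are described against that value.

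The libraries differed more between the pools than within them. The distance between 2 libraries, the percentage of mRNA reads that would have to change gene to make the shares equal, was 11.8, 13.8 and 14.6% between labelled and steady-state libraries of the same number. It was 6.09, 7.86 and 10.7% between labelled replicates and 3.49 to 3.75% between steady-state replicates. RNA pulled down before labelling (0 h) had a same-number distance of 7.89% ± 2.08 (SD, n = 3). Over labelling time the distance was highest at 1.5 h, with 33.9% ± 0.38. By 12 h it was 17.7% ± 0.37, by 48 h 13.7% ± 1.06 and by 96 h 13.4% ± 1.45. The last values differ by less than their spread. In total, 12.4 percentage points of mRNA reads moved between the mean pools, and 59 genes made up 50% of the loss while 421 made up 50% of the gain.

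**Figure D2:**
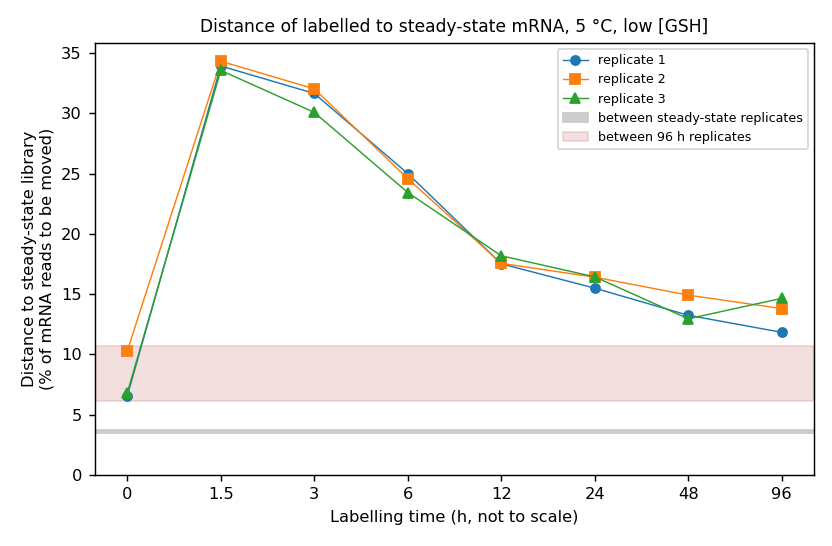
Distance of each labelled library to the steady-state library of the same number (% of mRNA reads) by labelling time (h, not to scale) in 3 replicates, with bands for the distances between steady-state replicates (grey) and between 96 h replicates (red). The 96 h values, 11.8 to 14.6%, lie above both bands. The 0 h values, from RNA pulled down before labelling, run from 6.56 to 10.3%.

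RNA pulled down before labelling gave the background of the assay. The 0 h libraries, with 393568 to 2032862 mRNA reads, went through the same pull-down with no label, and of 5530 genes 4 were higher (0.0723%) and 1 lower (0.0181%) than in steady state by edgeR. There 677 genes had an unadjusted p under 0.05, and with TMM 7 were higher and 1 lower. On the spike-in scale the 0 h value of a gene was 0.213, 0.314 and 0.621% of its 96 h value at the median in the 3 replicates. HSP26, one of the genes furthest below steady state, had 0.787 to 3.74% of its 96 h value at 0 h.

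Heat shock proteins, which refold or disaggregate proteins, were among the mRNAs with the largest falls. Of 39 genes for chaperones 20 fell (51.3%) and 8 rose, with a median of -0.41 (-0.61 with TMM, where 24 fell and 2 rose). Together they took 4.21, 4.00 and 3.45% of labelled and 5.37, 5.91 and 5.35% of steady-state mRNA, with no overlap. HSP26, a small heat shock protein, had 358, 395 and 271 RPM in labelled and 1142, 1652 and 1338 in steady-state libraries. Every labelled library was far below every steady-state library, and the mean was 4.04-fold lower (log2 fold change -2.01 ± 0.17 SE, adjusted p = 3.97e-05). SSA4, a stress-induced Hsp70, had 456, 354 and 312 against 1059, 1413 and 1131. SSA3, another such Hsp70, had 418, 370 and 374 against 859, 1315 and 1042. In neither gene did the groups overlap, and the log2 fold changes were -1.68 ± 0.16 (adjusted p = 5.85e-05) and -1.47 ± 0.15 (adjusted p = 8.32e-05). HSP78, the disaggregase of mitochondria, had 2431, 1986 and 2015 against 4341, 4862 and 4120 and fell by 1.05 on the log2 scale (adjusted p = 0.000178). HSP104, the disaggregase of the cytosol, had 3035, 2533 and 2548 against 4208, 4823 and 4297, again without overlap, and fell by 0.72 (adjusted p = 0.00103).

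Not all chaperones fell. SSB1 (0.76), SSB2 (0.35) and ZUO1 (0.42), whose products act on new chains at the ribosome, were among the 8, with log2 fold changes given in brackets. SSB1 and SSB2 are near-identical, so the split of reads between them is uncertain, and the groups of SSB2 overlapped. The count of 8 was 2 to 10 when single libraries or replicate numbers were left out, while the count of 20 was 18 to 22.

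In the lists for stationary phase, vacuole and reserve carbohydrates, more genes fell than rose. Of 35 genes for stationary phase and quiescence, 18 fell and 10 rose (median -0.27). Of 35 genes for autophagy and vacuolar hydrolases, 14 fell and 3 rose (median -0.23), and of 18 for trehalose and glycogen 8 fell and 3 rose (median -0.26). With TMM the counts were 19 and 4, 25 and 2, and 12 and 1. When single libraries or replicate numbers were left out, the counts of falls by share ran from 13 to 18, 6 to 21 and 2 to 10, and the 10 stationary phase rises from 5 to 11. AMS1, the vacuolar alpha-mannosidase, had 819, 759 and 845 RPM in labelled and 2093, 2268 and 2145 in steady-state libraries. The replicates lay close in both pools, and the gene fell by 1.43 ± 0.10 SE on the log2 scale (adjusted p = 2.21e-05). GRE1, a stress-induced hydrophilic protein, had 781, 1045 and 635 against 1811, 2532 and 2437, and YRO2, a membrane protein, 281, 241 and 173 against 666, 794 and 707. Both were lower in all labelled libraries, with log2 fold changes of -1.46 (adjusted p = 0.000263) and -1.64 (adjusted p = 8.09e-05). GPH1, glycogen phosphorylase, had 1171, 976 and 1099 against 1818, 1666 and 1619 (log2 fold change -0.65, adjusted p = 0.000858). Against this direction, PHM8, a vacuole-list gene whose product is a phosphatase, had 371, 379 and 404 in labelled and 142, 170 and 136 in steady-state libraries, 2.58-fold higher (adjusted p = 2.65e-05).

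Outside these lists, the largest falls by the same rule were of single metabolic genes. INO1, which makes inositol phosphate, had 71.4, 66.5 and 69.2 RPM in labelled and 151, 176 and 247 in steady-state libraries. GND2, an enzyme of the pentose phosphate pathway, had 214, 216 and 227 against 525, 641 and 615. Labelled values were nearly constant and, as the rule asks, below every steady-state value. The log2 fold changes were -1.47 (adjusted p = 0.000129) and -1.44 (adjusted p = 2.21e-05). RRT1 and CPP3 had the largest falls of all named genes, -2.58 and -2.45, but at 1.22 to 3.65 RPM in labelled and 9.5 to 17.8 in steady-state libraries, and the call of CPP3 was lost when the 0 h libraries stood in for steady state (adjusted p = 0.151).

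**Figure D3:**
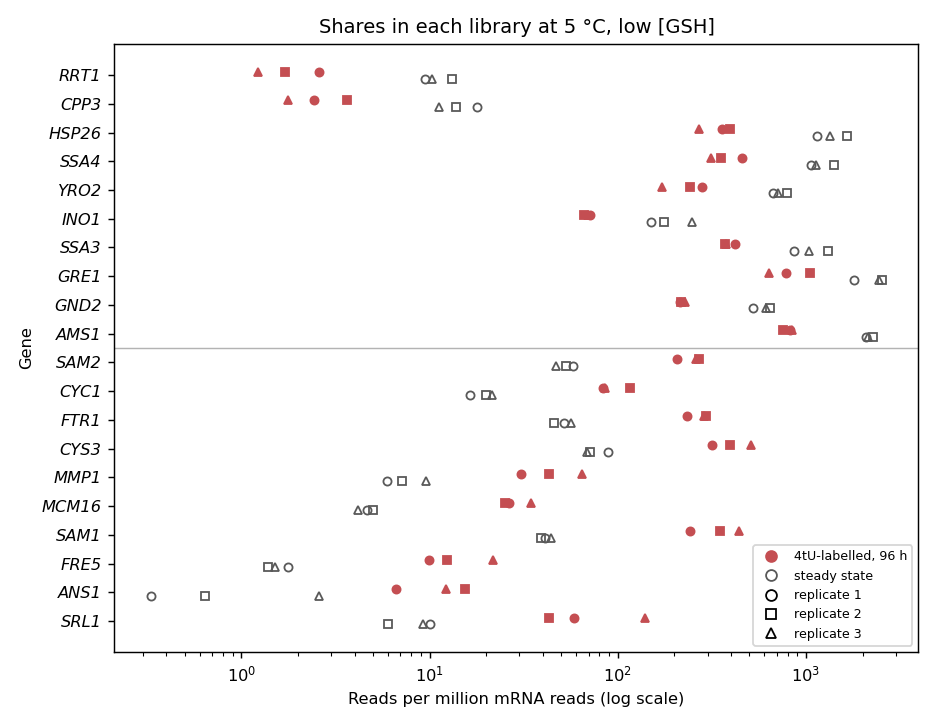
Share of the 10 genes with the largest falls (above the grey line) and the 10 with the largest rises (below it) in each of the 6 libraries, in RPM on a log scale; red filled points are labelled libraries, open grey points steady state, and shapes are replicates. The genes were chosen to have no overlap between the groups, and SRL1 is the widest among labelled replicates, from 43.0 to 140.

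The largest single loss of reads was that of URA2. This gene encodes the enzyme of the first steps of pyrimidine synthesis and took 12364, 11249 and 11492 RPM in steady-state libraries, over 1% of mRNA, and 6382, 5213 and 5905 in labelled ones. The mean was 2.01-fold lower (SE 0.13 on the log2 scale, adjusted p = 0.00024), which made 4.74% of all loss. The list of uracil uptake and pyrimidine synthesis, which includes URA2, was split. Of its 18 genes, 9 were higher and 3, URA2 among them, lower (median 0.26). With TMM 5 were higher and 3 lower, and 4 to 9 were higher when libraries were left out. FUR1, whose enzyme turns uracil into its nucleotide, had 99.8, 116 and 98.3 against 24.4, 31.7 and 34.6 and was 3.46-fold higher (adjusted p = 2.39e-05). DUT1, which breaks down dUTP, had 29.2, 34.7 and 33.1 against 10.4, 12.6 and 13.8 (log2 fold change 1.40, adjusted p = 0.000108). URA2 was picked after its values were seen.

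Glycolysis was lower on the whole but varied between cultures. Of 23 genes 10 fell and 3 rose (median -0.37), and the summed share was 5.87, 6.84 and 4.25% in labelled against 7.26, 7.09 and 7.12% in steady-state libraries. Labelled replicate 3 was lowest. Without it 10 fell and 4 rose, with a median of -0.18. Without steady-state replicate 2, 4 fell and 3 rose, and over all left-out libraries 4 to 14 fell. HXK1, a hexokinase, had 1001, 886 and 929 RPM against 1432, 1500 and 1434 (log2 fold change -0.63, adjusted p = 0.000533). PYK2, a pyruvate kinase used at low glycolytic flux, went the other way, with 190, 188 and 228 against 129, 133 and 120 (log2 fold change 0.67, adjusted p = 0.000638). TDH1 (-1.67) and ENO1 (-1.05) fell too, and each has a near-identical copy. The proteasome list held 5 lower and 4 higher of 34 (median -0.12), 18 lower and 1 higher with TMM, and 3 to 12 lower when libraries were left out. A list of actin, myosin, dynein and other large proteins held 16 lower and 5 higher of 34 (median -0.25). With the coding length trend removed 9 were lower and 3 higher (median -0.12), and 7 to 21 were lower when libraries were left out.

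**Figure D4:**
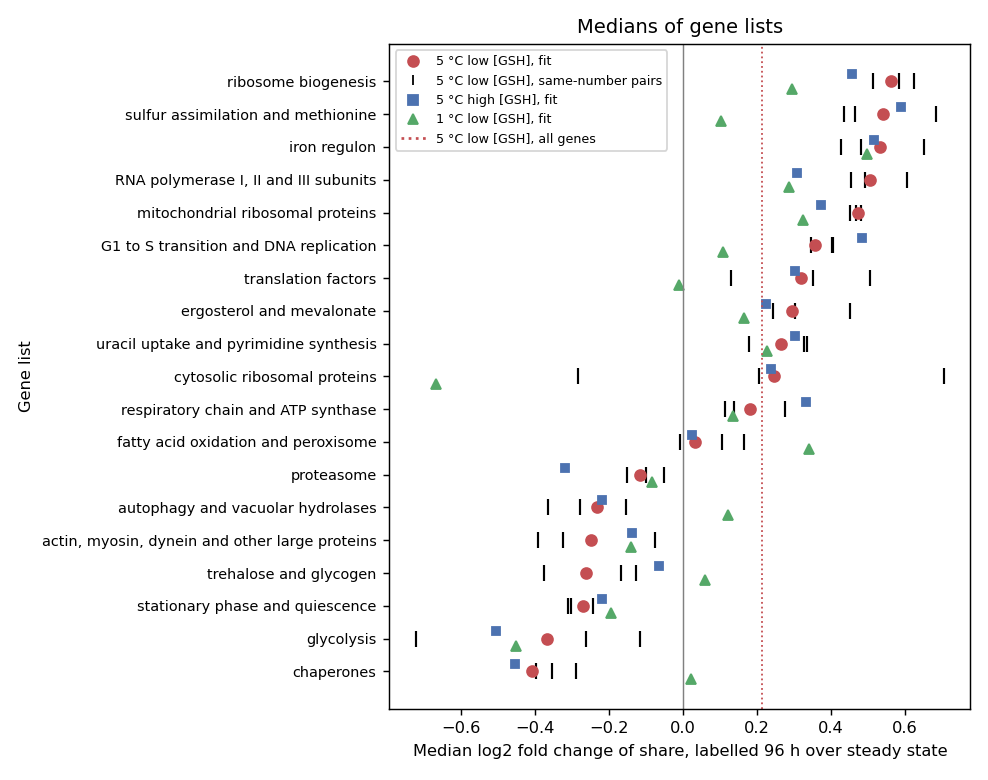
Median log2 fold change of share, labelled 96 h over steady state, for 19 gene lists: red circles are the fit at 5 °C low [GSH], black ticks its 3 same-number library pairs, blue squares 5 °C high [GSH], green triangles 1 °C low [GSH], and the dotted line is the median of all genes at 5 °C low [GSH], 0.21. Ribosome biogenesis lies at 0.56 and chaperones at -0.41, and the ticks of cytosolic ribosomal proteins run from -0.28 to 0.71.

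Genes for making ribosomes were higher as a group, whereas those for the ribosomal proteins themselves were not uniformly so. Of 127 genes of ribosome biogenesis, whose products process and assemble ribosomal RNA and proteins, 92 rose (72.4%) and 0 fell by edgeR, at a median of 0.56. With TMM, 71 rose and 3 fell (median 0.36). UTP8, a protein of the small subunit processome, had 128, 112 and 115 RPM in labelled and 50.4, 45.7 and 51.1 in steady-state libraries. UTP4, of the same complex, had 109, 103 and 102 against 45.1, 47.0 and 48.9. Both were more than 2-fold higher in each labelled library than in any steady-state one, with log2 fold changes of 1.27 ± 0.10 and 1.16 ± 0.09 SE and an adjusted p of 2.39e-05 each. Against the 0 h libraries the list had a median of 0.38, where that of all genes was 0.23. There 23 genes rose and 3 fell, and the call of UTP4 was lost (adjusted p = 0.0658). In the test of 0 h against steady state, 2 genes of this list were among the 4 higher. The list had a median of 0.21 in that comparison, against -0.03 for all genes.

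RNA polymerase subunits followed. Of 31 genes 18 rose and 0 fell by edgeR (median 0.50; 16 and 2 with TMM). RPA49, of RNA polymerase I, had 160, 154 and 142 RPM against 76.3, 67.7 and 78.9, and RPB8, shared by all 3 polymerases, had 74.3, 92.1 and 78.5 against 35.7, 36.0 and 28.9. Neither gene overlapped between groups, at log2 fold changes of 1.03 (adjusted p = 5.85e-05) and 1.28 (adjusted p = 6.57e-05). RPO21, the largest subunit of RNA polymerase II, did not pass, with 1013, 988 and 1405 against 1513, 1340 and 1536 (log2 fold change -0.37, adjusted p = 0.0565). Labelled replicate 3 was the high value, and without it the RPO21 log2 fold change was -0.55 (adjusted p = 0.000354). RPB3 of the same polymerase had 66.3, 70.9 and 74.3 against 48.4, 52.9 and 47.7 (adjusted p = 0.0018). The RPB3 log2 fold change was 0.50, and it did not pass with a length trend removed (adjusted p = 0.0648) or against the 0 h libraries (adjusted p = 0.601).

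Ribosomal proteins of mitochondria and of the cytosol differed in how the replicates behaved. Of 77 mitochondrial ribosomal protein genes 55 rose and 0 fell by edgeR (median 0.47; 35 and 3 with TMM, 25 and 3 with the length trend removed), and the medians of the same-number pairs were 0.45, 0.48 and 0.47. MRPL32 had 71.1, 84.6 and 94.0 RPM against 35.1, 31.7 and 32.5, and MRPL10 had 210, 209 and 262 against 93.1, 101 and 97.7. They rose by 1.33 and 1.23 on the log2 scale, with an adjusted p of 5e-05 each. The 137 cytosolic ribosomal protein genes had a median of 0.24, near that of all genes, with 32 higher and 1 lower (12 and 3 with TMM). Their summed share was 3.19, 4.34 and 2.39% in labelled and 2.83, 2.75 and 2.98% in steady-state libraries, so that labelled replicate 2 lay above and replicate 3 below all of the steady-state values. Medians of the same-number pairs were 0.20, 0.71 and -0.28 for these genes, against 0.19, 0.16 and 0.27 for all genes tested. Without labelled replicate 3, 93 genes were higher and 1 lower, and without labelled replicate 2, 19 were higher and 19 lower. Over all left-out libraries or numbers 12 to 96 were higher. RPS3 (473, 624 and 299 against 381, 340 and 397) overlapped, and RPL3 (772, 872 and 447 against 937, 876 and 915) was lower by 0.38, and neither passed (adjusted p = 0.232 and 0.137). The highest labelled value of RPL3, 872, lay just under its lowest steady-state value, 876. Of this list 94 genes have a near-identical copy, so values of single members are uncertain.

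Genes of sulfur metabolism and iron uptake held several of the steepest rises. Of 27 genes for sulfur assimilation and methionine, 17 rose and 3 fell (median 0.54; 15 and 4 with TMM). SAM1, one of the pair of S-adenosylmethionine synthetases, had 243, 350 and 439 RPM in labelled and 41.0, 38.9 and 44.3 in steady-state libraries, 8.31-fold higher (log2 fold change 3.05 ± 0.20 SE, adjusted p = 2.19e-05). SAM2, the other, had 207, 269 and 262 against 57.9, 53.0 and 47.0 (2.22 ± 0.13, adjusted p = 1.73e-05). CYS3, which makes cysteine from cystathionine, had 319, 393 and 508 against 89.2, 70.9 and 68.6 (2.41 ± 0.18, adjusted p = 2.23e-05). The lowest labelled value of each gene was more than 3 times its highest steady-state value. MMP1, the S-methylmethionine permease, rose by 2.60 (adjusted p = 0.000121) and MUP1, the methionine permease, by 1.40 (adjusted p = 5e-05). The 3 that fell were MET13, MET28 and STR3, at -0.44, -0.44 and -0.32.

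Of 25 genes of the iron regulon, 18 rose and 0 fell by edgeR (median 0.53; 14 and 4 with TMM, 11 and 4 with the length trend removed), and the list took 0.430, 0.449 and 0.498% of labelled against 0.281, 0.274 and 0.286% of steady-state mRNA. FTR1, the high-affinity iron permease, had 234, 296 and 289 RPM against 52.0, 46.1 and 56.7 and was 5.29-fold higher (adjusted p = 9.08e-06). FET3, the oxidase that works with it, had 774, 784 and 838 against 248, 201 and 255 (3.40-fold, adjusted p = 2.19e-05). TIS11, which promotes decay of mRNAs under iron shortage, had 98.6, 131 and 136 against 32.0, 31.8 and 35.7 (3.67-fold, adjusted p = 2.21e-05), and FRE5, a ferric reductase homologue, had 9.94, 12.4 and 21.7 against 1.77, 1.39 and 1.50 (adjusted p = 0.000125). The groups did not overlap in any of these 4 genes, as in 60.0% of all genes tested, and FRE5 lay at the low end of the range.

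Promoter windows of genes in 4 of the lists are shown because they hold letters known to be bound by a factor of that pathway. Windows are from the R64 genome of RefSeq, at most 30 bases, 5′ to 3′ on the gene's strand, with the match in capitals. HSP78 and HSP104 have the heat shock element GAANNTTCNNGAA, SAM2 and CYS3 the Cbf1 letters CACGTG, FTR1 and FIT2 the Aft1 letters TGCACCC on one strand or the other, and UTP8 the GATGAG of the PAC element.
HSP78 (chrIV:974465-974493, minus strand): attttccaGAATGTTCTAGAAgtgttctt
HSP104 (chrXII:88318-88346, plus strand): tttttccaGAATTTTCTAGAAgggttatt
SAM2 (chrIV:1454770-1454799, minus strand): aatatttctaccCACGTGactataattgag
CYS3 (chrI:130571-130600, plus strand): taattagccattCACGTGatctcagccagt
FTR1 (chrV:461898-461926, minus strand): gcgtagatgaaTGCACCCgatttctaagt
FIT2 (chrXV:1059389-1059417, plus strand): cgaatctaactGGGTGCAgtataattagc
UTP8 (chrVII:750164-750193, minus strand): aaactttgatgaGATGAGgtcactgttaaa

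Each motif was searched on both strands in the 500 bases before the start codon, so GGGTGCA is the Aft1 motif on the other strand. The heat shock letters were found before 13 of 39 chaperone genes (33.3%) and 83 of the 5621 genes tested (1.48%), and the Cbf1 letters before 20 of 27 sulfur genes (74.1%) and 6.21% of all. The Aft1 letters stood before 20 of 25 iron genes (80.0%) and 2.40% of all, and GATGAG before 116 of 127 ribosome biogenesis genes (91.3%) and 27.9% of all. These lists are of genes known partly for such sites. HSP26, SSA3 and SSA4 had no match of the heat shock letters in these windows. SAM1, MMP1 and MUP1 had none of the Cbf1 letters, and UTP4 none of the PAC letters. TIS11 and FRE5 had the Aft1 letters too, and FIT2 is shown without values of its share. The stress response letters AGGGG stood before 31 of the 48 genes that fell past 2-fold by share (64.6%), 89 of the 308 that rose past 2-fold by share (28.9%) and 34.6% of all. Genes past 2-fold with TMM were not searched. The motifs were chosen after the values were seen, and a match is not a measured site.

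Other lists had milder shifts. Of 27 ergosterol and mevalonate genes 15 rose and 0 fell by edgeR (median 0.30; 7 and 2 with TMM), led by ERG4, the last enzyme of the pathway, with 141, 138 and 118 RPM against 68.0, 54.4 and 55.3 (log2 fold change 1.16, adjusted p = 8.18e-05). Among 37 genes for entry into S phase and DNA replication 16 rose (43.2%, against 38.7% of all genes) and 1 fell (median 0.36), and with TMM 13 rose and 4 fell (median 0.16). Among the 16 were the G1 cyclins CLN1 (0.96) and CLN2 (0.91). Of 41 translation factors 21 rose and 2 fell (median 0.32), against 11 and 7 with TMM (median 0.12), and 9 to 25 rose when libraries were left out. The respiratory chain and ATP synthase held 14 higher (31.8%) and 2 lower of 44 (median 0.18), and 7 and 5 with TMM (median -0.02). Fatty acid oxidation and peroxisome held 15 higher (36.6%) and 4 lower of 41 (median 0.03), and 7 and 15 with TMM (median -0.17). Both shares of higher genes lie under the 38.7% of all genes. When libraries were left out, the rises of the ergosterol, respiratory and fatty acid lists ran from 8 to 17, 7 to 17 and 8 to 15. CYC1, cytochrome c, had 83.5, 116 and 85.4 against 16.5, 20.0 and 21.6 and rose by 2.29 (adjusted p = 2.21e-05). YAT1, a carnitine acetyltransferase, had 349, 370 and 505 against 95.9, 101 and 115 and rose by 1.97 (adjusted p = 2.39e-05). The other 12 lists, which cover the TCA cycle, antioxidants, histones, mitosis, meiosis, cell wall mannoproteins, amino acids, hexose transport, phosphate, mRNA decay, mating and the nuclear pore, had medians from -0.01 to 0.40, and from -0.20 to 0.19 with TMM.

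By the rule for the largest rises, SRL1, a cell wall mannoprotein, led with 58.3, 43.0 and 140 RPM against 10.1, 6.00 and 9.25, a log2 fold change of 3.26 ± 0.43 SE (adjusted p = 0.000293). ANS1 rose by 3.25 from 0.331, 0.643 and 2.58 to 6.68, 15.4 and 12.2, at the low end of the range. MCM16, a kinetochore protein, had 26.5, 25.3 and 34.5 against 4.64, 5.04 and 4.19 (2.63, adjusted p = 2.21e-05). The rule asks for no overlap, so that the labelled libraries of these 3 genes lay above every steady-state library was set by the choice.

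Genes with an unequal share at 96 h had come to it along different courses. HSP26 was 40.7 ± 5.4 RPM (SD, n = 3) at 1.5 h and 341 ± 63 at 96 h, under its steady-state share of 1378 ± 257 at each labelled time, while the 0 h pull-down had 1184 ± 179. AMS1 went from 269 ± 13 at 1.5 h to 920 ± 76 at 48 h and 808 ± 44 at 96 h, against 2169 ± 90 in steady state. URA2 stood at 7784 ± 562 at 48 h and 5833 ± 588 at 96 h. The courses of HSP26 and AMS1 rose from low starts, whereas that of URA2 did not.

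Genes above steady state also split. UTP8 was 376 ± 17 at 1.5 h and 118 ± 8.5 at 96 h, moving towards its steady-state share of 49.0 ± 2.9. SAM1 went from 141 ± 19 at 1.5 h down to 69.8 ± 6.5 at 12 h. It then reached 182 ± 46 by 48 h and 344 ± 98 by 96 h, further from its steady-state share of 41.4 ± 2.7. CYS3 had 98.0 ± 30 at 1.5 h, 238 ± 23 at 48 h and 406 ± 95 at 96 h, against 76.3 ± 11 in steady state. FTR1 was at 142 ± 7.0 already at 1.5 h and at 273 ± 34 at 96 h. The sources used here do not say whether libraries of 1 number at different times come from 1 culture, and these courses were not tested.

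**Figure D5:**
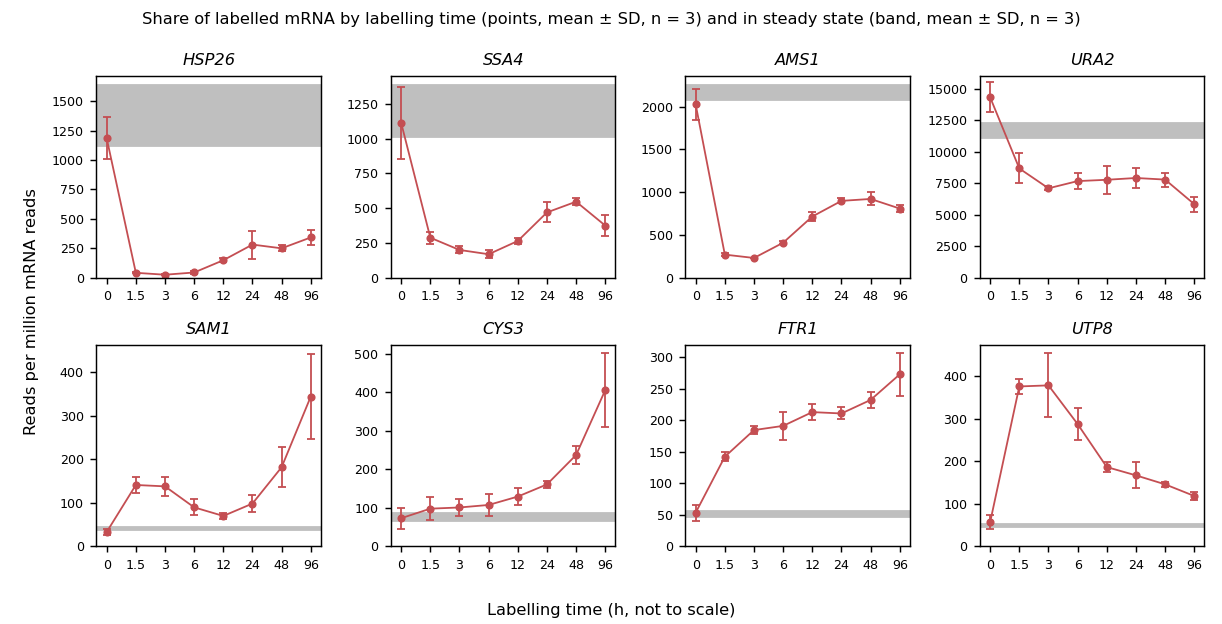
Share of 8 genes in labelled mRNA by labelling time (h, not to scale), in RPM, as mean ± SD of 3 libraries, with the steady-state mean ± SD (n = 3) as a grey band. HSP26, SSA4, AMS1 and URA2 lie under the band from 1.5 h on, UTP8 falls towards it, and SAM1 and CYS3 are highest at 96 h.

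Genes with a large share of reads were lower in labelled RNA than those with a small share. Genes were put in 5 bins by their steady-state share at 5 °C with high [GSH], from libraries that are not among those compared. The contrast with high [GSH] had a Spearman's rho of 0.91 with this one, so the bins and the contrast are not independent. This share is not divided by gene length, so the bins mix mRNA abundance with length. Medians of the log2 fold change were 0.50, 0.36, 0.25, 0.11 and -0.06 from the bin of smallest to that of largest share. The portion called lower was 3.47, 3.74, 5.69, 12.6 and 27.0%. Over 5 bins of coding length the medians were 0.28, 0.26, 0.23, 0.23 and 0.10, and over 5 bins of the U share of the coding sequence 0.29, 0.24, 0.23, 0.19 and 0.11. Spearman's rho was taken across the 5621 genes, which are not independent and share libraries and depth. It was -0.44 for the steady-state share with high [GSH], -0.14 for coding length and -0.13 for U share. The median of the 268 genes with an intron was 0.13 and of those without 0.22. The 253 genes with the Puf3 letters TGTAAATA in the 200 bases after the stop codon had a median of 0.30, against 0.21 for the others.

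The contrast was also made with added GSH. At 5 °C with high [GSH], 1918 of 5616 genes were higher (34.2%) and 729 lower (13.0%), and across 5606 genes the log2 fold changes of both contrasts, which share no library, had a Spearman's rho of 0.91. HSP26 fell by 2.42 and SAM1 rose by 3.37 there. In the test of the difference between low and high [GSH], 0 of 5637 genes passed in either direction by edgeR (0.0% higher and 0.0% lower). There 212 genes had an unadjusted p under 0.05, and DESeq2 called 1. This does not show that the contrasts are equal.

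The contrast was made at 1 °C as well. With low [GSH], 948 of 5721 genes were higher in labelled mRNA (16.6%) and 340 lower (5.94%), and Spearman's rho with the contrast at 5 °C was 0.38 across 5616 genes. The log2 fold change was higher at 5 °C than at 1 °C in 523 genes (9.14%) and lower in 359 (6.28%) by the test of the difference. No batch is given in the sources used here, and the 1 °C steady-state libraries held 23271952 to 28577718 mRNA reads. The 1 °C libraries also differed in the reads on mRNA transcripts left out of the tests. These took 1.05, 0.99 and 0.88% of reads on mRNA transcripts in labelled and 0.22, 1.02 and 0.23% in steady-state libraries. In the 5 °C libraries compared they took 0.16 to 0.23%. Temperature and handling can therefore not be told apart. Leaving out a replicate number left 171 to 217 higher and 110 to 212 lower.

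For cytosolic ribosomal proteins the temperatures differed. At 1 °C 92 of 137 fell and 1 rose, with a median of -0.67, and the difference passed as higher at 5 °C in 80 and lower in 0 (27, 28 and 56 higher without replicates 1, 2 and 3). Chaperones at 1 °C had 4 lower and 3 higher of 39 and a median of 0.02, and 14 differed as lower at 5 °C and 1 as higher (9, 3 and 4 lower without replicates 1, 2 and 3). HSP26 was at -1.97 at 1 °C, and its difference did not pass (difference -0.04 ± 0.32 SE, adjusted p = 0.952). HSP78 rose at 1 °C by 0.39 (adjusted p = 0.0306).

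In sulfur metabolism 3 genes rose and 5 fell of 27 at 1 °C, and 8 differed as higher and 3 as lower at 5 °C. SAM1 was lower in labelled mRNA at 1 °C, by -1.04 (adjusted p = 0.025), with mean shares of 70.0 against 143 RPM, so its difference was 4.10 ± 0.38 (adjusted p = 5.78e-05). MUP1 also turned, at -0.86 at 1 °C (adjusted p = 0.00657) and a difference of 2.26 ± 0.22 (adjusted p = 5.78e-05). Of 25 iron genes, 8 were higher and 1 lower at 1 °C (median 0.50), with FTR1 at 1.68 (adjusted p = 0.000212) and TIS11 at 1.65 (adjusted p = 0.000167). Amino acid biosynthesis, with 16 higher and 14 lower of 64 at 5 °C, had 22 higher and 1 lower at 1 °C, and 18 genes differed as lower at 5 °C and 4 as higher. With TMM the counts at 5 °C were 10 higher and 23 lower. Without replicates 1, 2 and 3 the 18 genes with a lower contrast at 5 °C were 7, 5 and 7.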

How the data were processed

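The authors extracted RNA, pulled down labelled RNA, depleted ribosomal RNA, sequenced stranded libraries and quantified each with Salmon against the transcripts of S. cerevisiae and the S. pombe spike-in. The submitters' processing notes name build R64. Whether counting used strand is not given in the sources used here. The deposited estimated counts are Salmon's expected reads per transcript, and the deposited TPM values are length-corrected abundances over both yeasts. Gene models are coding sequences (99.9% are multiples of 3).

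Estimated counts were rounded. Of 6532 S. cerevisiae mRNA transcripts, 5876 matched protein-coding genes of the RefSeq R64 annotation and 656 were left out. Genes were tested with edgeR 4.0.16 (R 4.3.3; quasi-likelihood, filterByExpr, Benjamini-Hochberg, threshold 0.05) with summed mRNA reads as library size, 3 against 3 libraries and no block, and differences between conditions by interaction over 12 libraries. Alternatives were TMM, DESeq2 1.42.0, limma 3.58.1 on log2 of TPM shares plus a pseudocount of 1 in 1000000, other filters, trends in length or U number removed, a replicate block and left-out libraries. The fit was tested on simulated counts. The p-values measure the spread between 3 replicates, which the labels call biological. An exact permutation test of 3 against 3 cannot go below 0.1 and was not used.

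The comparison, the 31 gene lists, the tests and the named genes were chosen with earlier results of these data known. The rule for named genes takes, among genes with a name, no near-identical copy (blastn 2.17.0, at least 90% identity over at least 80% of the length), at least 100 reads on average in the higher group and no overlap, the 10 largest rises and 10 largest falls. Also named are, for lists with at least 30% of tested members called one way, the 2 members of lowest adjusted p, and the RNA FISH genes RPS3, RPL3, RPO21 and RPB3. A subset is printed, and URA2, HSP78, HSP104, SSB1, SSB2, ZUO1, TDH1, ENO1, MUP1, TIS11, FIT2, CLN1, CLN2, MET13, MET28, STR3, HBT1 and RTC2 were added after values were seen. The smallest chi-square per degree of freedom between replicates was 7.63, so none was counted as a duplicate.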

Additional observations from a re-analysis of the deposited data

Results flagged for a closer look

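For 29 of the genes named, the contrast of labelled and steady-state share differed between 5 °C and 1 °C with low [GSH] in the test of the difference itself (edgeR, adjusted p under 0.05). Values are the log2 fold change at 5 °C minus that at 1 °C. Temperature and handling cannot be told apart in this test. In 11 genes the call was kept without each replicate number in turn. These were SAM1 (4.10), SAM2 (2.45), MUP1 (2.26), CYS3 (2.10), DUT1 (1.76), ERG4 (1.07), RPA49 (1.03) and UTP8 (0.98), with a higher contrast at 5 °C, and RTC2 (-1.47), HSP78 (-1.44) and AMS1 (-1.13), with a lower one.

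In the other 18 the call was lost without at least 1 replicate number. Higher at 5 °C were MCM16 (2.04), SRL1 (1.79), RPS3 (1.28), RPL3 (1.04), MRPL32 (0.82), RPB8 (0.77), FTR1 (0.72), FET3 (0.69), FUR1 (0.66) and UTP4 (0.59). Lower at 5 °C were CPP3 (-2.88), SSA3 (-1.49), URA2 (-1.39), INO1 (-1.35), SSA4 (-1.04), HBT1 (-0.89), RPO21 (-0.80) and GND2 (-0.63). HBT1 and RTC2 were 2.30-fold and 2.59-fold lower in labelled mRNA at 5 °C (adjusted p = 6.32e-05 and 2.19e-05).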

How the results depend on the processing

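Scaling, a removed trend, the reference and left-out libraries all moved the counts. In place of 2173 higher and 590 lower genes at 5 °C, low [GSH], there were 1327 and 1278 with TMM, 1312 and 1279 with DESeq2 size factors, 1269 and 1270 with the DESeq2 test, 1105 and 1216 with a coding length trend removed (1127 and 1233 with the block too), 1113 and 1208 with a U number trend removed, and 890 and 257 against the 0 h libraries, an alternative chosen after seeing the data. Left-out replicates or single libraries gave 1341 to 2303 higher and 257 to 820 lower, with 385 lower without steady-state replicate 2. Other settings stayed within 1.5 times. Whether libraries of the same number share a culture is not given in the sources used here. Deviations from the group means had correlations of 0.136, 0.002 and 0.013 between libraries of the same number. Between libraries of different numbers they ran from -0.10 to 0.07. With 3 libraries per pool these values cannot decide the pairing. The replicate block gave 2194 higher and 616 lower.

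With TMM, also added later, 1386 genes were lower at 5 °C, high [GSH], 467 higher and 593 lower at 1 °C, and 7 higher at 0 h against steady state. DESeq2 called 1 gene lower for the difference by GSH and 645 for that by temperature. Left-out replicates gave 171 to 217 higher and 110 to 212 lower for the latter, and 0 to 0 for the former.

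Some medians of lists changed sign. Cytosolic ribosomal proteins (0.24) came to -0.033 and -0.047 without a length or U trend (-0.079 with length and block) and to -0.037 to 0.46 with libraries left out. The respiratory chain came to -0.017 by TMM (-0.021 by both DESeq2 settings), -0.092 without a length trend, -0.093 with the block too and -0.11 without a U trend. Fatty acid oxidation came to -0.17 by TMM, -0.18 by both DESeq2 settings, -0.15, -0.16 and -0.14 without those trends, and -0.015 to 0.13 with libraries left out. With TMM the TCA cycle came to -0.14, antioxidants and hexose transporters each to -0.08, mRNA decay to -0.05 and the nuclear pore to -0.02. The proteasome came to 0.0085 against the 0 h libraries. The cause was not tested. Of 46 named genes, none changed direction while called, and 6 settings lost a call and 14 gained one among 966, all in CPP3, UTP4, RPB3, RPO21, RPL3 and RPS3. Depth limits genes at a few RPM in a pool, such as RRT1, CPP3, ANS1 and FRE5.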
